A study of Homo sapiens with 4 samples.

Results

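A set of 10 genes of the contractile actin cytoskeleton was followed through senescent and young human fibroblasts: the actins ACTA2 and ACTB, the tropomyosins TPM1, TPM2 and TPM4, the myosin subunits MYL9 and MYH9, and the actin-binding proteins TAGLN, CNN1 and CALD1. They were chosen by name as myofibroblast and stress-fibre genes, out of 19322 coding genes with a symbol, and they hold 122 annotated transcripts of the 185591 in the tables. RNA was sequenced from WI-38, an established line of fetal lung fibroblasts that divides a limited number of times. The 4 groups were mitoplasts of senescent cells at population doubling level 60, mitoplasts of young cells at level 21, whole senescent cells at level 60 and whole young cells at level 21, all of 1 cell line and with no treatment named in the labels. A mitoplast is a mitochondrion without its outer membrane. The labels describe hypotonic swelling of crude mitochondria and repeated digestion with RNase A. With a single library per group, conditions and libraries cannot be told apart, and no difference here was checked in a replicate.

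Stress fibres are bundles of actin filaments that non-muscle myosin pulls against focal adhesions. Tropomyosins lie along the filaments and set which myosins and severing proteins reach them, while calponin, caldesmon and transgelin bind the filaments and restrain or stabilise them. Fibroblasts that turn into myofibroblasts add smooth muscle alpha-actin to these fibres. Many of these genes are known targets of serum response factor and its actin-sensing cofactors, the myocardin-related transcription factors, which bind a DNA motif called the CArG box. Senescent fibroblasts are known for a large, flat shape with prominent stress fibres.

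Levels are in FPKM, fragments scaled to transcript length and to the mapped fragments of the library, summed over the annotated transcripts of a gene. The depth of the libraries is unknown. Ratios are log2 of (FPKM + 1) between 2 libraries, and a gene was counted as higher or lower where the ratio passed 1 in size. Transcripts with no Ensembl identifier held 97.3% of the summed FPKM in the senescent mitoplast library, 92.7% in the young mitoplast library, 76.2% in senescent whole cells and 53.7% in young whole cells. A value of 0 can be a failed estimate. Young whole cells held 1892 coding genes with at least 50 FPKM, and 260 of these had a 0 in senescent mitoplasts, 109 in young mitoplasts and 54 in senescent whole cells. All 8 fibroblast markers reached 1 FPKM in each whole-cell library and 7 in each mitoplast library. Their summed level was 917 FPKM in senescent mitoplasts, 5406 in young mitoplasts, 3635 in senescent whole cells and 7038 in young whole cells. VIM, vimentin, made up much of the difference: it was listed at 0 in senescent mitoplasts and stood at 4312 FPKM in young mitoplasts, 1144 FPKM in senescent whole cells and 3263 FPKM in young whole cells.

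The contractile genes took 2.01% of the coding FPKM in senescent whole cells and 1.31% in young whole cells. They took 0.803% in senescent mitoplasts and 0.607% in young mitoplasts. These shares also follow the coding sum, which was lower in both senescent libraries. In whole cells the contractile genes summed to 9660 FPKM of 480039 in senescent and 9377 FPKM of 718160 in young cells. In mitoplasts they summed to 1977 FPKM of 246143 in senescent and 6156 FPKM of 1014427 in young cells. ACTB led them in all 4 libraries. In senescent whole cells the order was ACTB, CALD1, TPM1, TPM2, TAGLN, ACTA2, MYL9, MYH9 and CNN1. In young whole cells it was ACTB, TPM2, TAGLN, CALD1, TPM1, MYL9, ACTA2, MYH9 and CNN1. TPM4 was listed at 0 in both. Without replicates there is no spread against which neighbours in these orders could be told apart.

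**Figure D1:**
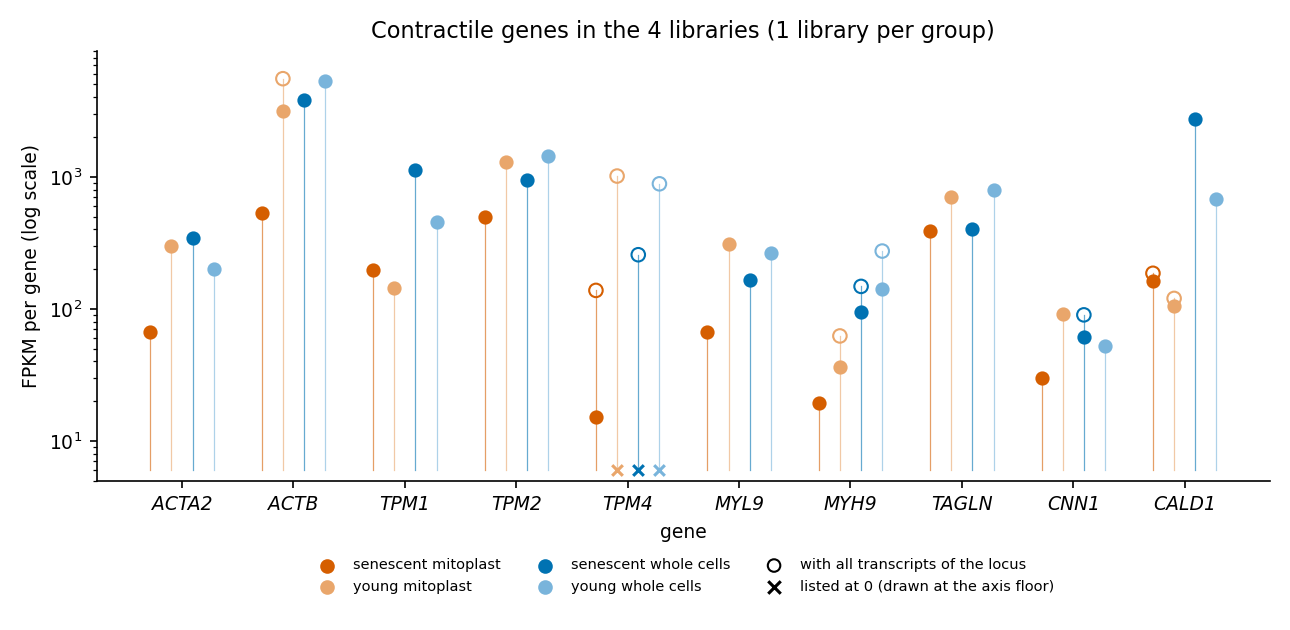
FPKM of each contractile gene (log axis) in the 4 libraries, with 1 point per library. Filled points are annotated transcripts, open circles add every transcript of the locus, and crosses mark a value of 0. CALD1 and TPM1 have their highest points in senescent whole cells, at 2742 and 1121 FPKM, and ACTB has its lowest in senescent mitoplasts, at 533 FPKM.

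Senescent whole cells held more CALD1 and TPM1 transcript than young whole cells, and somewhat more ACTA2, while TAGLN, MYL9, TPM2, MYH9 and ACTB had lower totals, of which ACTB and MYH9 turned when the libraries were scaled to equal coding sums. TAGLN turned when its partial transcript was left out, and CNN1 differed by less than the fold. Of the 9 genes with at least 5 FPKM in either library, the rule for every count below, 2 passed the fold upwards, CALD1 and TPM1, and 0 downwards. Among 7729 coding genes with at least 5 FPKM in either library, 13.8% were higher and 23.7% lower by that much, and 11.5% and 21.1% of those above 0 in both. The median ratio was −0.50 over the 9 genes and −0.27 over all coding genes compared. The 9 genes thus lay on both sides of the median gene, 4 of them above it. Of all coding genes past the fold, 36.9% were higher as deposited, 63.5% with equal coding sums and 47.0% with median-of-ratios scaling. In bulk RNA, fewer cells of a type and less RNA per cell cannot be told apart.

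The actins went in opposite directions. ACTA2, smooth muscle alpha-actin, stood at 344 FPKM in senescent whole cells and 199 FPKM in young whole cells, a log2 ratio of 0.79, which passed the fold with equal coding sums, at 1.37. All of it was 1 transcript, ACTA2-201, of 1349 nt with a complete frame of 377 residues. ACTB, the cytoplasmic beta-actin of every cell, stood at 3786 FPKM in senescent and 5349 FPKM in young whole cells, a ratio of −0.50. Set against the median coding gene, the difference was 1.06 for ACTA2 and −0.23 for ACTB. The level of ACTA2 per level of ACTB was 0.0909 in senescent whole cells and 0.0371 in young whole cells. ACTA2 rank among coding genes was 232 in senescent and 523 in young whole cells.

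The complete ACTB transcript, ACTB-213 of 1495 nt, held 759 FPKM in senescent and 1348 FPKM in young whole cells, 20.1% and 25.2% of the gene. The partial ACTB-208 of 715 nt was at 2205 FPKM in senescent and 1672 FPKM in young whole cells. The partial ACTB-205 of 568 nt was listed at 0 in senescent and stood at 1510 FPKM in young whole cells. The retained-intron ACTB-210 was level, at 821 and 818 FPKM. The direction of ACTB therefore differs between its transcripts, and its total turned to 0.08 when the libraries were scaled to an equal coding sum. The actin genes share long near-identical coding stretches with each other and with pseudogenes, so how reads were divided among ACTB, ACTG1, ACTA2 and ACTG2 is uncertain.

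The promoter of ACTA2 is shown because ACTA2-201 starts at its start site and carried all of the gene in every library. It is the 250 bases upstream of that site in the RefSeq table of GRCh38.p14, chr10:88952774-88953023, minus strand, 5′ to 3′, with CArG-like boxes in capitals.
ACTA2 promoter: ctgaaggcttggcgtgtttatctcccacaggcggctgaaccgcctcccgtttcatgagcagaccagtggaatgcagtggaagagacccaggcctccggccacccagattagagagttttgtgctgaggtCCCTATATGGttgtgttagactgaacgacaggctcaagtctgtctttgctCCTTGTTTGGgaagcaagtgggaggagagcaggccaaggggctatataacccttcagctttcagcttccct
The search took the CArG box, CC, then 6 bases of A or T, then GG, and a CArG-like box with 1 G or C among the 6, on both strands. The 2 boxes here start 121 and 71 bases upstream of the start site, and both are CArG-like. A CArG box lay in 1.16% of the table's 35116 promoters of this length, and either form in 7.04%. Of the 10 genes, 7 had an entry, with 14 promoters, of which 3 held either form: this one, 1 of TPM4 with a CArG box and 1 of CALD1 with a CArG-like box. No annotated transcript above 0 started at the TPM4 and CALD1 promoters with a box. Where the assembled transcripts of these loci start is not known here. ACTB, TAGLN and MYL9 were not in the table. The TPM1 transcripts of whole cells, TPM1-219, TPM1-220 and TPM1-223, start 5719, 5731 and 5742 bases upstream of the TPM1 entry's start site. The promoter at their own starts was therefore not searched. CNN1-201, MYH9-201 and TPM4-201 start 134, 100 and 189 bases upstream of the nearest start site of their genes. The 250 bases searched there lie partly downstream of these transcript starts, so the full stretch upstream of them was not searched.

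**Figure D2:**
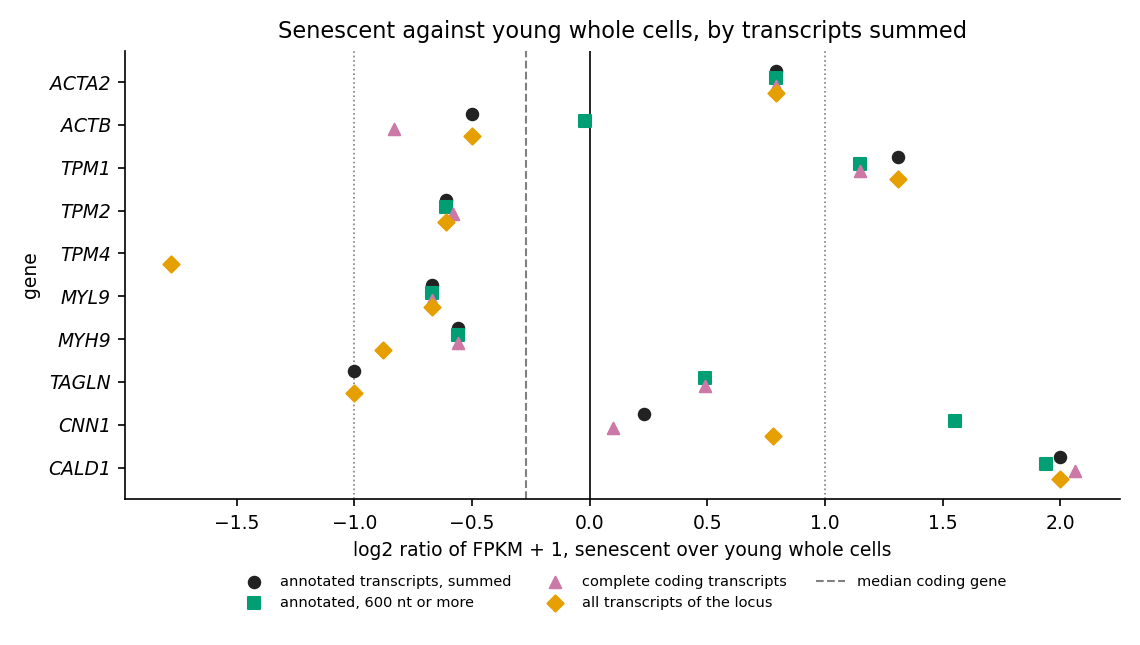
Log2 ratio of FPKM + 1, senescent over young whole cells, for each gene under 4 ways of summing its transcripts (symbols). The dashed line is the median coding gene at −0.27, and dotted lines mark a ratio of 1 in either direction. CALD1 and TPM1 lie past 1 under all 4 sums, and TAGLN lies on both sides of 0.

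The tropomyosins differed from each other. TPM1 stood at 1121 FPKM in senescent and 452 FPKM in young whole cells, a ratio of 1.31. TPM2 stood at 944 FPKM in senescent and 1438 FPKM in young whole cells, a ratio of −0.61. TPM1 was thus above TPM2 in senescent whole cells, with a level ratio of 1.19, and below it in young whole cells, at 0.314. Over 9 ways of summing or scaling, the TPM1 ratio ran between 1.15 and 1.89 and the TPM2 ratio between −0.61 and −0.03.

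The FPKM of TPM1 came from 3 transcripts in whole cells. TPM1-220, complete with 284 residues, was at 389 FPKM in senescent and 175 FPKM in young whole cells. TPM1-219, also complete, was at 87.9 FPKM in senescent and 39.6 FPKM in young whole cells. The short TPM1-223 of 485 nt, with a frame of 70 residues, was at 644 FPKM in senescent and 237 FPKM in young whole cells. The 3 transcripts thus differed in the same direction, with log2 ratios of 1.15, 1.13 and 1.44. TPM1-219 shares 78.3% of its bases with TPM1-220, and TPM1-223 shares 53.2%, so these directions are not independent. For TPM2, the complete TPM2-201 was at 756 FPKM in senescent and 1134 FPKM in young whole cells. Its retained-intron transcript TPM2-205 was at 189 FPKM in senescent and 304 FPKM in young whole cells.

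Tropomyosin genes make muscle and non-muscle proteins from one locus through pairs of exons of equal length, of which a transcript takes one. In rat, TPM1 exon 2a is known from smooth muscle and 2b from most other cells. In rat TPM2, the upstream exon 6a goes with fibroblasts and smooth muscle and the downstream exon 6b with skeletal muscle. The pairs are shown because the transcripts with values above 0 differ in them. Each exon is read from GENCODE 29 transcripts (GRCh38), 5′ to 3′, with the bases that differ from its partner in capitals. The TPM1 exons lie on the plus strand at chr15:63043706-63043831 (2a), chr15:63044027-63044152 (2b), chr15:63061198-63061273 (6a) and chr15:63061713-63061788 (6b). The TPM2 exons lie on the minus strand at chr9:35685064-35685139 (6a) and chr9:35684732-35684807 (6b). All 6 are coding.
TPM1 exon 2a: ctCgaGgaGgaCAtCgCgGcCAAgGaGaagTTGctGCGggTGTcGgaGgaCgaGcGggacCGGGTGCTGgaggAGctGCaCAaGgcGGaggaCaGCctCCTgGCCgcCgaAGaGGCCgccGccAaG
TPM1 exon 2b: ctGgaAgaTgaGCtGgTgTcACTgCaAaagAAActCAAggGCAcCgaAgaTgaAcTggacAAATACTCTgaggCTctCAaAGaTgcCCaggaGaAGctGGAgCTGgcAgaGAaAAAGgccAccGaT
TPM1 exon 6a: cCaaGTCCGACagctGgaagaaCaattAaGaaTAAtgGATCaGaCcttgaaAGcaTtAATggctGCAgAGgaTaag
TPM1 exon 6b: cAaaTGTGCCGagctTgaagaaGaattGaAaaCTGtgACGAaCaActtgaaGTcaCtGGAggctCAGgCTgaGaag
TPM2 exon 6a: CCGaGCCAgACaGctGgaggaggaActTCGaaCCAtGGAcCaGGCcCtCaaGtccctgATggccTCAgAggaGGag
TPM2 exon 6b: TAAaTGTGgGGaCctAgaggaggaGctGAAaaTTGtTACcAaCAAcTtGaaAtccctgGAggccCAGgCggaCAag
The partners share 62 of 126 bases (49.2%) for TPM1 exon 2, 43 of 76 (56.6%) for TPM1 exon 6 and 40 of 76 (52.6%) for TPM2 exon 6.

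The share of each exon was taken from the FPKM of the annotated transcripts that carry it, since the tables hold no reads per exon. Among TPM1 transcripts with either exon 2, exon 2b took 81.6% in senescent whole cells and 81.5% in young whole cells. Exon 6b took the same shares, because TPM1-220 holds both and TPM1-219 holds 2a and 6a. These transcripts summed to 477 FPKM of 1121 in senescent and 214 FPKM of 452 in young whole cells. TPM1-223, the other part, holds neither exon pair, so the shares do not describe most of the gene. In TPM2, exon 6b took all of the carriers' FPKM in both whole-cell libraries, through TPM2-201. The exon that rat fibroblasts use, 6a, was listed at 0 in both and had 86.1 FPKM in young mitoplasts, through TPM2-203. Senescent mitoplasts stood apart for TPM1: exon 2a had 67.2 FPKM and exon 2b was listed at 0, against 28.7 and 116 FPKM in young mitoplasts.

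**Figure D3:**
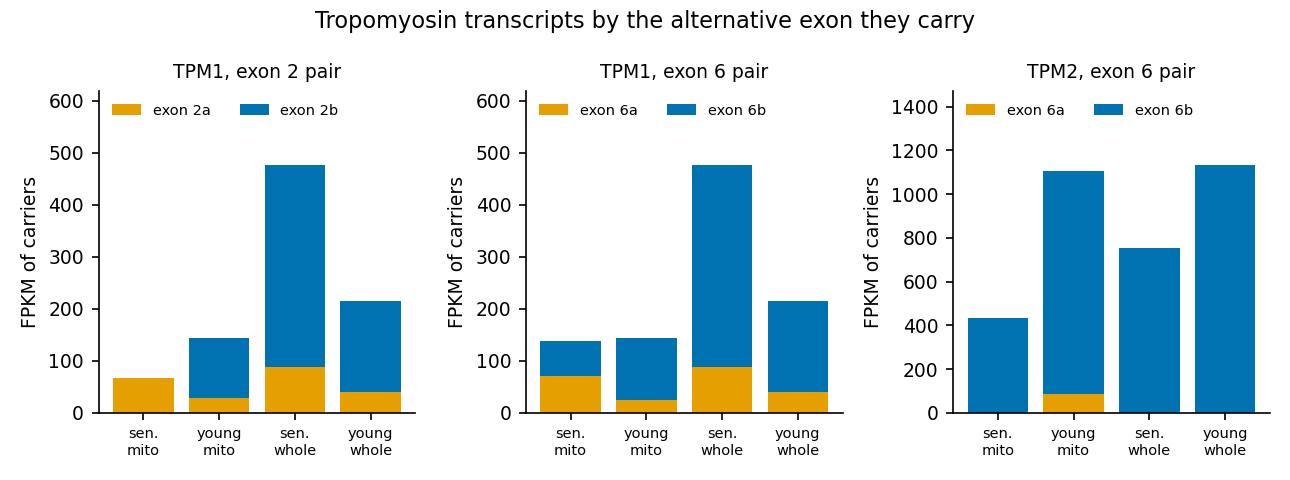
Summed FPKM of annotated transcripts that carry each exon of 3 alternative pairs, by library. Exon 2b of TPM1 takes about the same share in both whole-cell libraries (81.6% and 81.5%) and is at 0 in senescent mitoplasts.

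TPM4, the short non-muscle tropomyosin, had no annotated transcript above 0 in 3 libraries. Its one annotated value was 15.3 FPKM of TPM4-201 in senescent mitoplasts. Assembled transcripts without an identifier lay in the locus in the other libraries. Counting every transcript of the locus, a sum chosen after seeing the data, TPM4 was at 257 FPKM in senescent and 885 FPKM in young whole cells, a ratio of −1.78. The senescent value holds 119 FPKM of an Ensembl transcript with no current symbol, and without that transcript the ratio was −2.67. The tables do not say which exons the assembled transcripts hold, so these levels describe the locus and not the complete mRNA.

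The myosin subunits were both lower in senescent whole cells, within the fold, although MYH9 turned to 0.02 with equal coding sums. MYL9, the regulatory light chain whose phosphorylation starts contraction, stood at 165 FPKM in senescent and 264 FPKM in young whole cells, a ratio of −0.67. MYH9, the heavy chain of non-muscle myosin IIA, stood at 95.2 FPKM in senescent and 141 FPKM in young whole cells, a ratio of −0.56. The annotated FPKM of each gene was 1 complete transcript, MYL9-201 with 172 residues and MYH9-201 with 1960 residues. Assembled transcripts in the MYH9 locus held another 53.2 FPKM in senescent and 134 FPKM in young whole cells. With them the MYH9 ratio was −0.88. The level of MYL9 per level of MYH9 was 1.73 in senescent and 1.88 in young whole cells. Set against the median coding gene, MYL9 differed by −0.41 and MYH9 by −0.29. MYL9 is near-identical in its coding part to MYL12A and MYL12B, so the split of reads among them is uncertain.

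The actin-binding proteins held both the gene with the largest difference and the gene whose direction depends most on its transcripts. CALD1, caldesmon, which inhibits myosin on the actin filament, stood at 2742 FPKM in senescent and 683 FPKM in young whole cells, a ratio of 2.00. Its rank among coding genes was 10 in senescent and 140 in young whole cells. The level of CALD1 per level of MYL9 was 16.6 in senescent and 2.59 in young whole cells. Much of it lay in partial transcripts. CALD1-212 of 558 nt held 1447 FPKM in senescent and 345 FPKM in young whole cells. CALD1-209 of 1614 nt was at 951 FPKM in senescent and 306 FPKM in young whole cells. The complete CALD1-202, with 538 residues, was at 136 FPKM in senescent and 31.8 FPKM in young whole cells, a ratio of 2.06. Complete and partial transcripts thus differed in the same direction. CALD1-209 shares 93.4% of its bases with CALD1-202, and CALD1-212 shares 75.1%. Their reads can be assigned to either, so the directions are not independent. CALD1-207, marked as a target of nonsense-mediated decay, had 209 FPKM in senescent whole cells and was listed at 0 in young whole cells. CALD1-201, which encodes the longer protein of 793 residues that smooth muscle is known for, was listed at 0 in all 4 libraries. That 0 can be a failed estimate.

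TAGLN, transgelin, an early marker of smooth muscle and of myofibroblasts, stood at 401 FPKM in senescent and 800 FPKM in young whole cells. Its ratio of −1.0 lay just inside the fold. The complete TAGLN-202, with 201 residues, was at 401 FPKM in senescent and 285 FPKM in young whole cells, a ratio of 0.49. The partial TAGLN-204 of 501 nt had a 0 in senescent whole cells and stood at 515 FPKM in young whole cells. All 501 bases of TAGLN-204 also lie in TAGLN-202, so their reads can be assigned to either. The lower total in senescent whole cells therefore rests on the partial transcript alone.

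CNN1, calponin 1, which inhibits the myosin ATPase on actin in smooth muscle, stood at 61.3 FPKM in senescent and 52.1 FPKM in young whole cells, a ratio of 0.23. The complete CNN1-201 was at 21.8 FPKM in senescent and 20.3 FPKM in young whole cells. The partial CNN1-208 of 700 nt had 39.5 FPKM in senescent whole cells and was listed at 0 in young whole cells. CNN1-206 of 512 nt had a 0 in senescent whole cells and stood at 31.9 FPKM in young whole cells. Both partial transcripts lie wholly within CNN1-201. With transcripts of 600 nt or more alone, CNN1 had a ratio of 1.55.

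**Figure D4:**
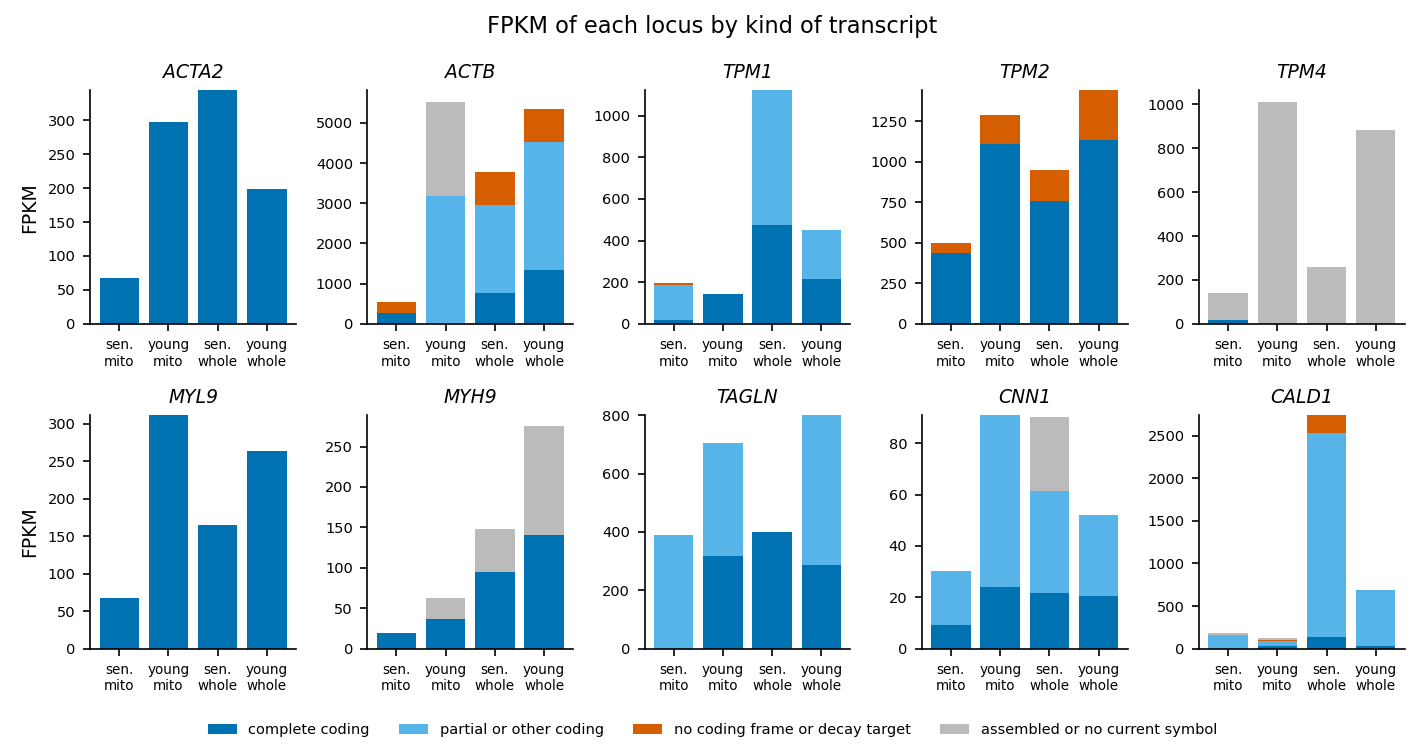
FPKM of each locus in the 4 libraries, stacked by kind of transcript: complete coding, partial or other coding, without a coding frame or marked for decay, and assembled or without a current symbol. ACTA2 and MYL9 are complete transcripts throughout, CALD1 is mostly partial, and nearly all of TPM4 lies in transcripts that are assembled or have no current symbol.

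The other genes of the contractile apparatus were mostly within the fold between senescent and young whole cells, as were most coding genes. The fold was passed by 37.5% of coding genes, 13.8% upwards and 23.7% downwards, and the median coding gene stood at −0.27. Of 14 further actin, tropomyosin, myosin and calponin genes, 10 could be compared, with 1 higher, 3 lower and a median ratio of −0.51. MYL12A, a non-muscle regulatory light chain, was at 212 FPKM in senescent and 63.4 FPKM in young whole cells, led in the senescent library by a noncoding transcript. ACTG1, cytoplasmic gamma-actin, was at 1460 FPKM in senescent and 3079 FPKM in young whole cells, a ratio of −1.08. A short transcript of 471 nt led ACTG1 in every library. MYH10, the heavy chain of myosin IIB, was at 7.77 FPKM in senescent and 18.5 FPKM in young whole cells. CNN2, a calponin of non-muscle cells, was at 101 FPKM in senescent and 223 FPKM in young whole cells. Both cytoplasmic actins were thus lower on the deposited scale while ACTA2 was higher, with ACTB turning under equal coding sums.

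Of 20 crosslinking and adhesion genes, all could be compared, with 2 higher, 2 lower and a median of −0.41. PALLD, palladin, a scaffold of the fibre's dense regions, was at 1172 FPKM in senescent and 465 FPKM in young whole cells. PDLIM1, a PDZ and LIM protein bound to alpha-actinin, was at 144 FPKM in senescent and 69.6 FPKM in young whole cells. TGFB1I1, the adhesion protein Hic-5, was at 11.3 FPKM in senescent and 51.6 FPKM in young whole cells, a ratio of −2.09. CSRP1, a LIM protein of actin bundles, was at 48.3 FPKM in senescent and 115 FPKM in young whole cells.

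Of 22 regulators of myosin and actin turnover, 16 could be compared, with 0 higher, 3 lower, the 0 of GSN included, and a median of −0.10. CAPZB, which caps filament ends, was at 43.0 FPKM in senescent and 89.2 FPKM in young whole cells. TMSB10, which binds actin monomers, was at 708 FPKM in senescent and 1432 FPKM in young whole cells. TMSB4X, of the same family, was at 383 FPKM in senescent and 660 FPKM in young whole cells, within the fold. GSN, the severing protein gelsolin, was listed at 0 in senescent and stood at 29.6 FPKM in young whole cells. CFL1 and PFN1 were among the genes not compared. Both were listed at 0 in all 4 libraries, which can be a failed estimate.

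Of 6 genes of the serum response factor pathway, 4 could be compared, with 0 higher, 1 lower and a median of −0.81. MYOCD, myocardin, was at 3.06 FPKM in senescent and 14.1 FPKM in young whole cells, led by a short transcript marked for decay. MRTFB, an actin-sensing cofactor, was at 54.5 FPKM in senescent and 106 FPKM in young whole cells, led by a noncoding transcript of 389 nt. ELK4, a partner of serum response factor, was at 10.0 FPKM in senescent and 12.9 FPKM in young whole cells. The leading transcripts of both cofactors were thus not coding ones in whole cells.

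Smooth muscle markers beyond these genes were present in part. Of 7, 5 reached 1 FPKM in each library, with sums of 49.0 FPKM in senescent mitoplasts, 307 in young mitoplasts, 288 in senescent whole cells and 291 in young whole cells. MYH11, the smooth muscle myosin heavy chain that defines the lineage, was listed at 0 in all 4 libraries. So were CFL1 and PFN1, given above, and the 0 of MYH11 can likewise be a failed estimate. DES, desmin, reached at most 0.574 FPKM. SYNPO2, an actin-binding protein of smooth muscle, was at 36.4 FPKM in senescent and 9.63 FPKM in young whole cells. SMTN, smoothelin, had 94.7 FPKM in senescent whole cells, led by a retained-intron transcript, and 48.5 FPKM in young whole cells. ACTG2, smooth muscle gamma-actin, had 141 FPKM in senescent and 210 FPKM in young whole cells, and MYOCD, given above, was lower past the fold. The list thus went both ways. Striated muscle markers reached 1 FPKM for at most 1 of 8 genes in a library, blood markers for at most 1 of 5 and epithelial markers for at most 2 of 6. Of 4 endothelial markers found, at most 2 reached it, with sums of 32.5 FPKM in senescent mitoplasts, 8.23 in young mitoplasts, 24.8 in senescent whole cells and 28.9 in young whole cells. VWF, von Willebrand factor, gave 23.3 FPKM of the senescent mitoplast sum.

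In mitoplasts, on the deposited scale, most of the contractile genes stood lower in the senescent library than in the young one, as did most coding genes. Of 10 genes compared, 5 passed the fold downwards and 1 upwards. With equal coding sums, 0 passed it downwards and 5 upwards, and with median-of-ratios scaling 3 each way. Among 7365 coding genes, 52.9% were lower and 23.8% higher by that much. The median was −1.12 over the 10 genes and −1.18 over all coding genes. Values of 0 weigh on both: among the 5163 coding genes above 0 in both libraries, 44.1% were lower and 22.6% higher, with a median of −0.72. The 9 contractile genes above 0 in both had 5 lower, 0 higher and a median of −1.37. The split of higher and lower calls depends on the scaling: 31.0% of all calls were higher as deposited, 59.1% with equal coding sums and 44.5% with median-of-ratios scaling.

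ACTB was at 533 FPKM in senescent and 3176 FPKM in young mitoplasts, a ratio of −2.57. MYL9 was at 66.9 FPKM in senescent and 311 FPKM in young mitoplasts, a ratio of −2.20. ACTA2 was at 67.2 FPKM in senescent and 298 FPKM in young mitoplasts, a ratio of −2.13. These 3 lay furthest below the median coding gene, with differences from it of −1.39, −1.02 and −0.95. CNN1 was at 30.2 FPKM in senescent and 90.9 FPKM in young mitoplasts, and TPM2 at 496 and 1289 FPKM, with ratios of −1.56 and −1.37. With equal coding sums CNN1 and TPM2 turned to 0.44 and 0.67, and ACTB at −0.53, MYL9 at −0.17 and ACTA2 at −0.10 no longer passed the fold. The 1 gene higher was TPM4, at 15.3 FPKM in senescent mitoplasts and listed at 0 in young mitoplasts. Its whole locus went the other way, at 138 FPKM in senescent and 1013 FPKM in young mitoplasts, a ratio of −2.87. Of the 138 FPKM, 123 FPKM was the Ensembl transcript with no current symbol, without which the ratio was −5.96.

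CALD1 and TPM1, the 2 genes higher in senescent whole cells, were not lower in senescent mitoplasts when their annotated transcripts were summed. CALD1 was at 162 FPKM in senescent and 105 FPKM in young mitoplasts, a ratio of 0.63. TPM1 was at 197 FPKM in senescent and 144 FPKM in young mitoplasts, a ratio of 0.45. Set against the median coding gene, the differences were 1.81 and 1.63. That median, −1.18, counts genes listed at 0 in a library, and it was −0.72 over genes above 0 in both. The transcripts behind the 2 genes were not the same in both libraries. TPM1-220 was listed at 0 in senescent and stood at 91.1 FPKM in young mitoplasts. TPM1-230 was at 67.2 FPKM in senescent mitoplasts and listed at 0 in young mitoplasts. Complete TPM1 transcripts alone had a ratio of −2.82, and transcripts of 600 nt or more −0.56. The complete CALD1-202 was listed at 0 in senescent and stood at 25.7 FPKM in young mitoplasts. The direction of both genes therefore rests on the transcripts counted. TAGLN was at 390 FPKM in senescent and 705 FPKM in young mitoplasts, and MYH9 at 19.5 and 36.4 FPKM, both within the fold as deposited. With equal coding sums both passed it upwards, TAGLN at 1.19 and MYH9 at 1.11. With the assembled transcripts of its locus MYH9 passed it downwards, at −1.63.

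The mitoplast libraries were also set against whole cells of the same age. In senescent cells, 6 of 10 contractile genes were lower in mitoplasts and 1 was higher, against 59.6% lower and 19.3% higher among 7749 coding genes. The gene counted higher was TPM4, listed at 0 in senescent whole cells. The median was −1.76 over the 10 genes and −1.63 over all coding genes. Over genes above 0 in both libraries, it was −2.23 for 9 contractile genes and −1.13 for coding genes, of which 53.2% were lower and 16.9% higher. In young cells, 3 of 9 were lower and 0 higher, against 40.2% lower and 17.4% higher among 8051 coding genes. The medians there were −0.18 and −0.52. Of coding genes above 0 in both young libraries, 37.7% were lower and 13.4% higher. Of all calls, 24.5% were higher in senescent cells as deposited, 36.7% with equal coding sums and 40.0% with median-of-ratios scaling. In young cells the shares were 30.2%, 20.2% and 44.2%.

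With all annotated transcripts summed, CALD1 was the contractile gene furthest below whole cells at both ages. It was at 162 FPKM in mitoplasts and 2742 FPKM in whole cells of the senescent culture, a ratio of −4.07. In young cells it was at 105 FPKM in mitoplasts and 683 FPKM in whole cells, a ratio of −2.69. With transcripts of 600 nt or more the young ratio was −1.68, and with complete transcripts −0.30, both nearer 0 than that of MYH9. TPM1 and MYH9 were lower at both ages too, with ratios of −2.50 and −2.23 in senescent cells and −1.64 and −1.92 in young cells. The young TPM1 ratio was −0.57, within the fold, with transcripts of 600 nt or more and with complete ones. ACTB was at 533 FPKM in mitoplasts and 3786 FPKM in whole cells of the senescent culture, a ratio of −2.83, and its ratio in young cells was −0.75. Adding the assembled transcripts of its locus, 2353 FPKM in young mitoplasts alone, moves the young ratio to 0.05.

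TAGLN and TPM2 differed least between the fractions on the deposited scale. With equal coding sums the senescent ratio of TAGLN was 0.92, and with median-of-ratios scaling 1.15, past the fold. TPM2 was then at 0.04 and 0.27, and CNN1 at −0.06 and 0.17. TAGLN was at 390 FPKM in mitoplasts and 401 FPKM in whole cells of the senescent culture, and at 705 and 800 FPKM in young cells. The transcript differed in senescent cells: mitoplasts had TAGLN-204 alone and whole cells TAGLN-202 alone. TPM2 had ratios of −0.93 in senescent and −0.16 in young cells. Set against the median coding gene, the senescent values were 1.59 for TAGLN and 0.70 for TPM2. That median, −1.63, counts genes listed at 0 in a library, and it was −1.13 over genes above 0 in both. CNN1, at 30.2 FPKM in mitoplasts and 61.3 FPKM in whole cells of the senescent culture, lay just inside the fold at −1.0, and just past it, at −1.02, with a pseudocount of 0.1.

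**Figure D5:**
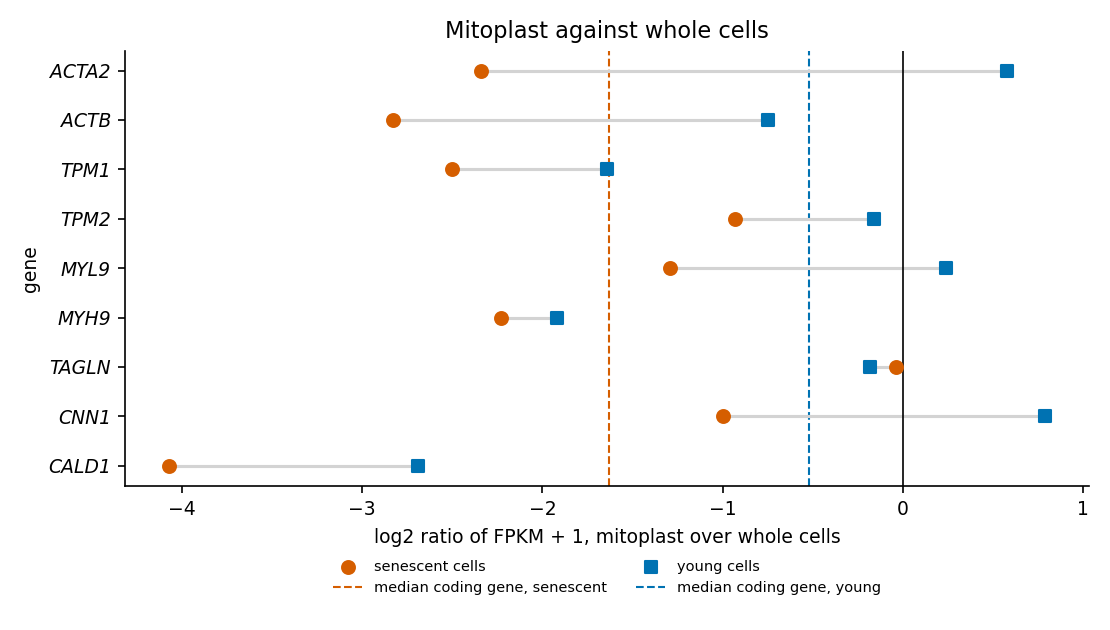
Log2 ratio of FPKM + 1, mitoplast over whole cells, in senescent (circles) and young cells (squares) for 9 genes; dashed lines are the median coding gene, at −1.63 and −0.52. ACTA2, MYL9 and CNN1 lie below 0 in senescent cells and above 0 in young cells, on the deposited scale. On this scale TAGLN is near 0 at both ages. MYL9 in young cells turned to −0.26 with equal coding sums. With median-of-ratios scaling CNN1 in senescent cells turned to 0.17 and TAGLN to 1.15.

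The other lists are given beside the coding genes, of which 52.9% were lower in senescent than in young mitoplasts, with a median of −1.18. Between senescent and young mitoplasts, 7 of 10 further actin and myosin genes were lower and 0 higher, with a median of −2.19. Of 20 crosslinking genes, 11 were lower and 3 higher, with a median of −1.18 and 2 genes listed at 0 in a library. Of 19 regulators, 11 were lower and 3 higher, with a median of −1.66 and 3 genes listed at 0 in a library. The shares of the crosslinking genes and regulators lie near that of all coding genes. In young cells, mitoplasts against whole cells, the same lists had medians of 0.28, −1.09 and 0.61. ACTG1 was at 384 FPKM in senescent and 5838 FPKM in young mitoplasts, a ratio of −3.92, led in both by the transcript of 471 nt. It was thus the cytoplasmic actin with the larger difference between the mitoplast libraries.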

How the data were processed

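The deposited files give, per the file headers, an FPKM value for each of 393483 transcripts in each of 4 libraries. Tools named in the submitters' processing notes are Cufflinks 2.2.1, TopHat2 2.0.14 and Cuffdiff, with the build hg19. Options, annotation and strand setting: not given in the sources used here. Without strand, overlapping antisense genes cannot be told apart. The values hold no counts, so no interval is given.

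Of 185591 Ensembl transcripts, 172475 (92.9%) matched GENCODE 29, used for names, types, lengths and exons on its own build, GRCh38. The 199 rows with more than 1 identifier across libraries, counted in the 185591, were left out. FPKM were summed per gene, and ratios used a pseudocount of 1 FPKM and coding genes at 5 FPKM or more in either library as background. No test is possible with 1 library per group. The calculation was tested on simulated data.

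All members are named, with transcripts at 10% or more of a gene or leading in a library, and up to 4 genes per other list by their whole-cell ratio at 10 FPKM or more. CFL1 and PFN1 are also named, for their values of 0. Members, lists and markers were chosen with earlier results of these data known. Alternatives were a pseudocount of 0.1, 5 other sums of transcripts, 2 rescalings and other filters on the background. Python 3.11.15, pandas 2.3.3, NumPy 2.4.6 and Matplotlib 3.10.9 were used. PECAM1 was not analysed here.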

Additional observations from a re-analysis of the deposited data

Results flagged for a closer look

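The contractile genes ACTA2, CNN1 and MYL9 differed in direction between the ages or the fractions, which was not tested, since each value compares 1 library with 1. ACTA2 had a mitoplast to whole-cell ratio of −2.34 in senescent cells and 0.58 in young cells, a difference of −2.92. The same numbers give a senescent to young ratio of −2.13 in mitoplasts and 0.79 in whole cells, again −2.92 apart. CNN1 had mitoplast to whole-cell ratios of −1.0 in senescent and 0.79 in young cells, a difference of −1.79. Its senescent to young ratios were −1.56 in mitoplasts and 0.23 in whole cells, also −1.79 apart. MYL9 had mitoplast to whole-cell ratios of −1.29 in senescent and 0.24 in young cells, a difference of −1.53. The directions depend on the scaling. With equal coding sums, ACTA2 was at −0.10 between senescent and young mitoplasts and at 0.09 between young mitoplasts and whole cells. CNN1 then had senescent to young ratios of 0.44 in mitoplasts and 0.80 in whole cells, which no longer differ in direction. The young value of MYL9 turned to −0.26, so both of its ratios were below 0. With median-of-ratios scaling the senescent mitoplast to whole-cell ratio of CNN1 turned to 0.17. The median coding gene moved with them, at −1.63 in senescent and −0.52 in young cells, and its part in the differences was not tested.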

How the results depend on the processing

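The fold counts and medians depended on the transcripts summed and on the scaling, and the cause was not tested. Between senescent and young whole cells the median ratio was −0.50 as reported, 0.49 with transcripts of 600 nt or more and 0.10 with complete coding transcripts alone, a sum chosen after seeing the data. The whole-cell median was 0.08 with equal coding sums and −0.28 with median-of-ratios scaling, with 3 genes past the fold upwards under each. Between senescent and young mitoplasts it was −1.12 as reported, −1.74 with complete coding transcripts, −0.22 with median-of-ratios scaling and 0.89 with equal coding sums. There TPM2 and CNN1 turned to 0.67 and 0.44. In young cells, mitoplasts against whole cells, median-of-ratios scaling gave 5 genes past the fold in place of 3. In senescent cells the median of that contrast was −1.76 as reported, −2.42 with assembled transcripts, −0.82 with equal sums and −0.59 with median of ratios. A pseudocount of 0.1 moved all 36 gene ratios by less than 1.5-fold, but took CNN1 in senescent mitoplasts against whole cells to −1.02, which gave 8 genes past the fold in place of 7. In whole cells, ACTA2, TPM1, CNN1 and CALD1 stayed above 0 and TPM2 and MYL9 below 0 under all 9 settings. Equal sums moved the median coding gene to 0.28 between senescent and young whole cells. No paired analysis was possible because each group holds 1 library and no test was run. Depth is unknown, so low values carry no stated precision.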
